A study of Mus musculus with 41 samples.

Results

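The samples described here are the 20 mouse brainstem tumors that carried the H3.3 K27M mutation, out of 41 RNA-seq libraries in the series, split at the middle of a score of neuronal transcripts. The score of a tumor was the mean log2(FPKM + 1) of 4 genes: Snap25 (a SNARE protein of vesicle fusion), Syt1 (the calcium sensor of fast transmitter release), Rbfox3 (the splicing factor detected as NeuN) and Stmn2 (a microtubule regulator of axons). FPKM counts sequenced fragments per kilobase of a gene's transcript and corrects for the size of the library. The 10 tumors with the highest score form the higher group and the 10 with the lowest the lower group.

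All 20 tumors carried H3f3aLSL-K27M-Tag/+ together with Trp53flox/flox, the receptor allele LSL-PDGFRαV544ins and the recombinase Nestin-creERT2. In these mice a Cre recombinase driven by the Nestin promoter, which is active in neural stem and progenitor cells, switches on a tagged mutant H3.3 and a mutant PDGF receptor alpha, and deletes Trp53. The 9 comparison tumors (WT-Tag) shared the Cre, the receptor and the Trp53 alleles and carried H3f3aLSL-WT-Tag/+ in place of the mutant histone. Neither the age of the mice nor the time of recombination is given in the labels. The other 12 libraries were neurospheres, which are stem-like neural cells grown in suspension, from forebrain or hindbrain with Nestin-cre. Each tumor library came from a piece of snap-frozen tissue of a numbered tumor.

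Diffuse gliomas of the brainstem grow among the cells of the host tissue, so that a tumor piece can hold resident neurons, myelinating oligodendrocytes, astrocytes, microglia and vessels beside tumor cells. Neurons are known by genes of the synapse, the axonal cytoskeleton, voltage-gated channels and transmitter synthesis. In bulk tissue, fewer cells of a type and less RNA per cell cannot be told apart, so the score is a level of neuronal transcripts and not a count of neurons.

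The score ran from 1.39 (tumor 4) to 5.24 (tumor 16), with a median of 2.43 in the lower group and 4.65 in the higher group. It formed a gradient with no gap at the middle: tumor 21, the lowest of the higher group, scored 4.38, and tumor 17, the highest of the lower group, scored 4.13. The lower group was the more varied, with an SD of 0.969 against 0.267 (n = 10 each). In the 9 WT-Tag tumors the score ran from 1.12 to 4.64 with a median of 3.61. It left a gap there: tumors 9, 8 and 28 scored 1.12, 1.37 and 1.78, and the next, tumor 27, scored 3.35. In the 12 neurosphere libraries the score stayed between 0.299 and 0.605. The score was 1.39 to 2.05 in 5 tumors (4, 23, 1, 3 and 15), which had few neuronal transcripts but still more than the neurospheres.

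Snap25 was at 2.49 FPKM in the lowest tumor of the lower group, 17.3 at its median and 87.6 in the highest, against 96.6, 127 and 212 in the higher group. Stmn2 was at 1.71, 11 and 29.2 in the lower group and 31.6, 38.8 and 53.3 in the higher group. Rbfox3 was lower throughout, at 0.131, 0.605 and 1.98 against 2.82, 3.75 and 5.23. Syt1 was at 1.05, 3.53 and 10.8 against 9.06, 15.3 and 28.2, and was the one score gene whose groups overlapped. These values chose the groups and are given without a test.

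**Figure D1:**
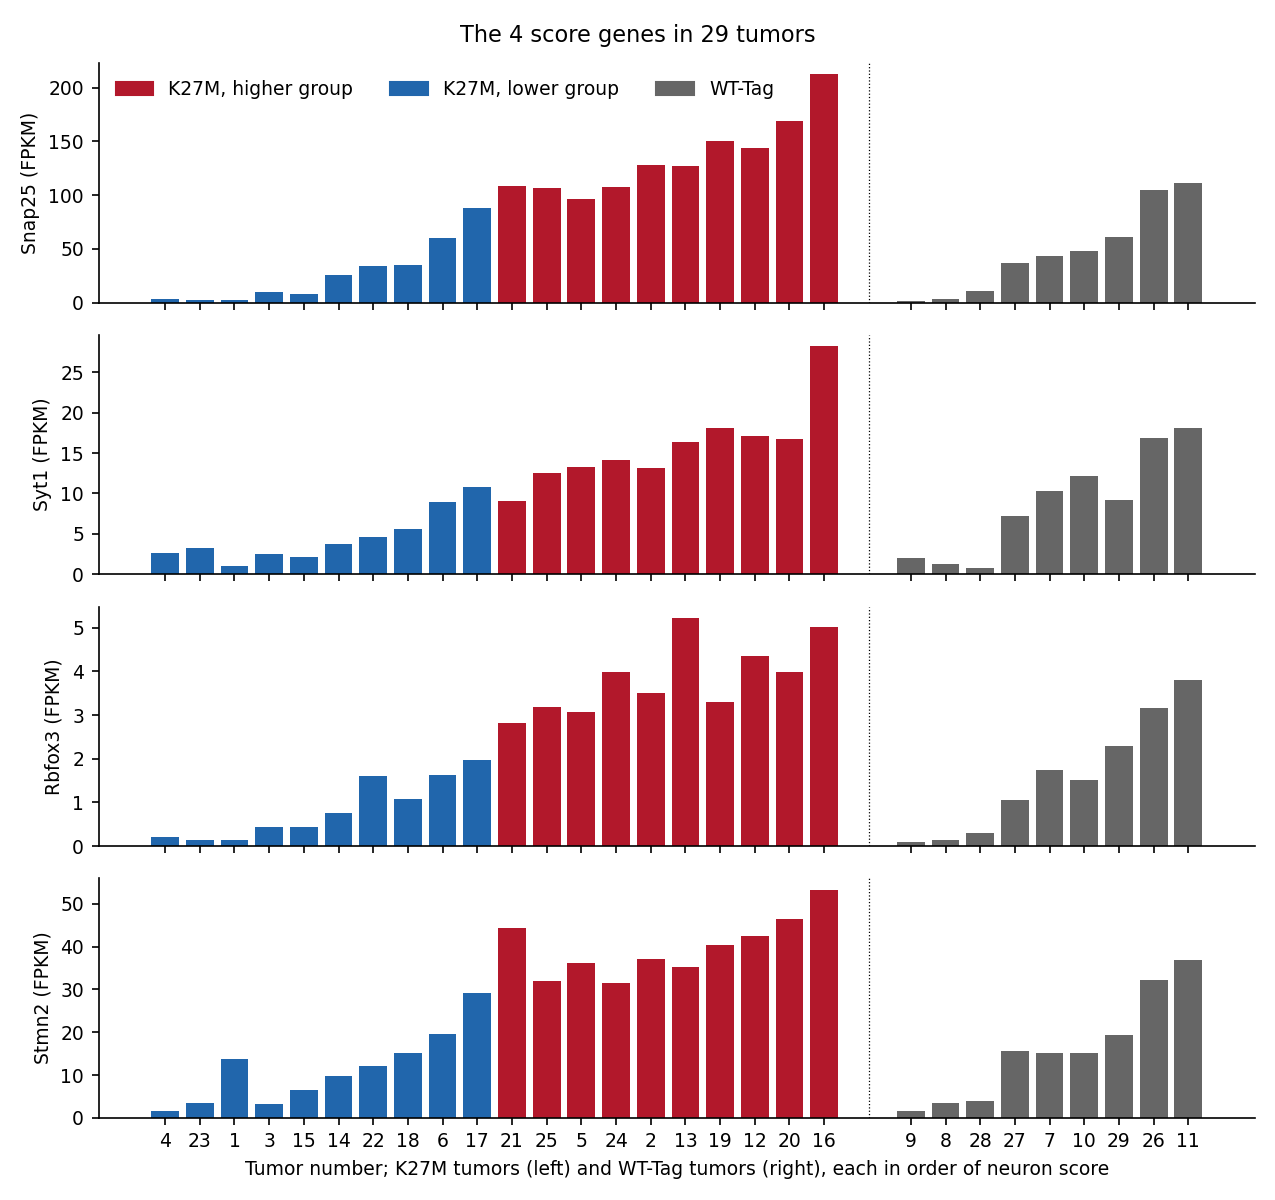
FPKM of the 4 genes of the neuron score in each of the 20 K27M tumors (left, blue for the lower group and red for the higher group) and the 9 WT-Tag tumors (right, grey), ordered by score within each genotype, with 1 bar a tumor. Snap25 climbs from 2.49 FPKM in the lower group to 212 in tumor 16, with no break between tumors 17 and 21.

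A second set of neuronal genes, Syp, Syn1, Nefl and Gad1, put all 20 tumors in the same group. The higher group held 7 tumors labelled female and 3 male, the lower group 4 and 6 (2-sided Fisher's exact p = 0.37). Relative sequencing depth, read from the step between low FPKM values, averaged 0.856 in the higher and 0.996 in the lower group (permutation p = 0.375). A p that misses the threshold does not show that sex or depth were alike. Tumor 14, in the lower group and labelled female, had Xist (the RNA of the silenced X chromosome) at 1.90 FPKM and the Y-linked Ddx3y at 0. WT-Tag tumors 8 and 9, the pair with the lowest scores among WT-Tag tumors, went against their sex labels: the library labelled tumor 8, female, had Xist at 0.031 and Ddx3y at 3.44, and that labelled tumor 9, male, had 54.5 and 0.003. For counts and genes called in WT-Tag tumors, the calls lost without both are therefore given. The K27M mutation and the tag cannot be read from values per gene. The deposited table scales each library as a whole, and the mitochondrial rRNA gene mt-Rnr2 alone was at 7011 to 26447 FPKM in the lower group and 18674 to 34786 in the higher group. Its part in the other values was not tested. Rescaling by median ratios moved the median difference over all genes from -0.08 to -0.04.

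Differences between the groups are given as the mean log2(FPKM + 1) of the higher group minus that of the lower group, ± the standard error of the difference, with 10 tumors a group. Because measured values made the groups, they are descriptions with no p-value. Of 15356 genes tested, with the 4 score genes left out, 719 were at least 2-fold higher in the higher group (4.68%) and 119 at least 2-fold lower (0.775%). Differences of any size were positive in 6317 genes and negative in 9039. In 386 genes all tumors of the higher group lay above all of the lower group (2.51%), and in 168 all lay below (1.09%). With median-of-ratios scaling 474 genes lay wholly above and 117 wholly below. Tumor 17, next to the middle, weighed on these counts: without it 960 genes lay wholly above and 196 were at least 2-fold lower. Without tumor 16, 77 were at least 2-fold lower.

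The WT-Tag tumors were not used to make the groups. In them each gene was tested for a slope on the same score, in log2 units per unit of score, by limma with Benjamini-Hochberg adjustment over all 15356 genes. Slopes of any size were positive in 6902 genes and negative in 8454. An adjusted p below 0.05 was reached by 1180 genes with a positive slope (7.68%) and 577 with a negative slope (3.76%). Without tumors 8 and 9 these were 643 and 230, and with median-of-ratios scaling 1267 and 361. Once tumors 8 and 9 were left out, tumor 28 alone held the low end of the score. Single tumors also counted: 745 and 73 genes were called without tumor 26, 766 and 99 without tumor 9, and 1468 and 1031 without tumor 8, while the negative calls fell to 339, 234 and 289 without tumors 27, 28 and 29.

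Genes higher in the higher group were compared with those that rose with the score in WT-Tag tumors. Of the 719 genes, 645 had a positive slope past the threshold, which is 89.7% of the 719 and 54.7% of the 1180. Without tumors 8 and 9 it was 448, or 62.3% of the 719 and 69.7% of the 643. Of the lower genes, 19 of the 119 had a negative slope past the threshold (16% of the 119 and 3.29% of the 577), although 111 had a slope of that sign. That overlap was 4 without tumors 8 and 9, 5, 6, 9, 10 and 12 without tumor 9, 26, 28, 29 or 7, and 37 and 54 without tumor 8 or 11. Across the 15356 genes, the slope fitted over K27M tumors and that over WT-Tag tumors correlated at Pearson's r of 0.767 and Spearman's rho of 0.715. This is a description across genes, which are not independent, and the x and y values share no tumor.

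**Figure D2:**
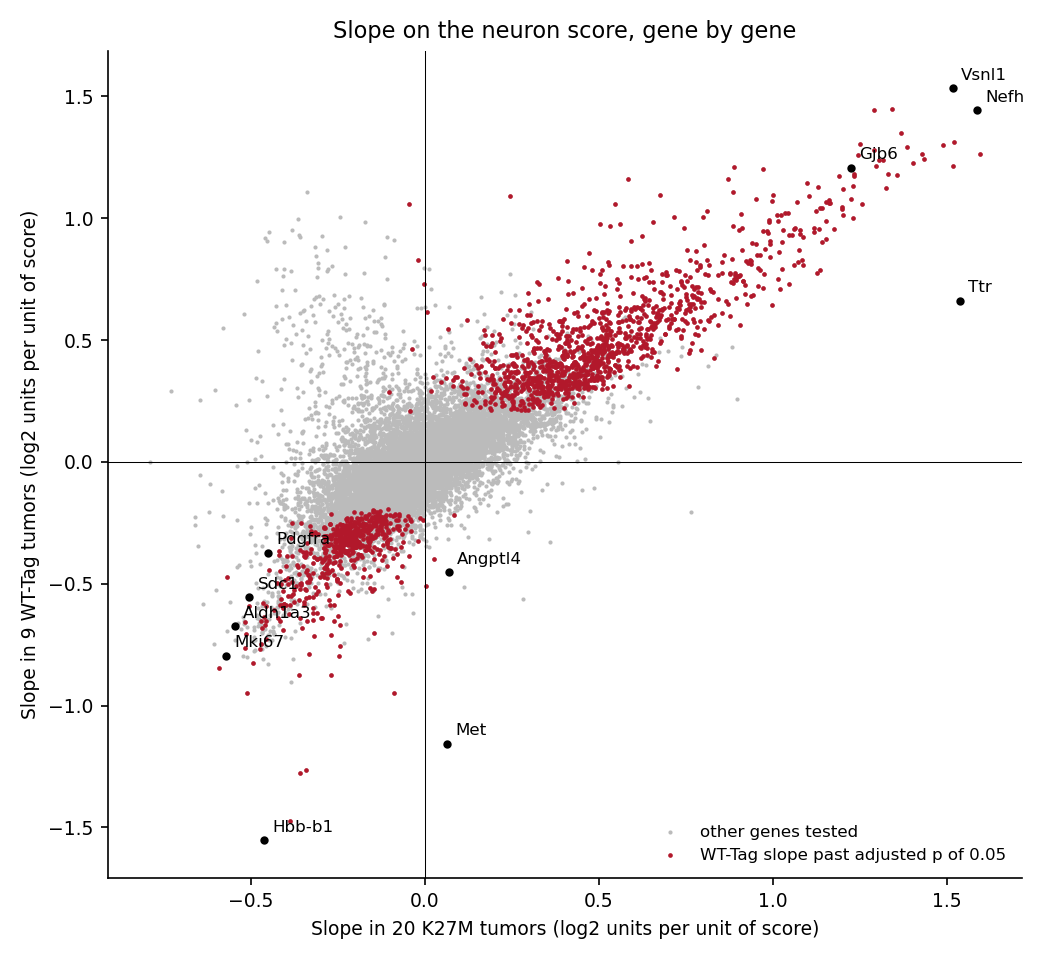
Slope of each of 15356 genes on the neuron score in the 20 K27M tumors (x axis) and in the 9 comparison tumors (y axis), in log2 units per unit of score, with red points past an adjusted p of 0.05 in WT-Tag tumors and named genes in black. Vsnl1 and Nefh lie at the upper right, where neuronal genes gather, and Angptl4 and Met stand below the main cloud.

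Neuronal genes beyond the score made up 8 lists with 92 tested members. Of these, 56 were at least 2-fold higher in the higher group and 0 at least 2-fold lower, with a median difference of 1.26 against -0.08 over all genes. In WT-Tag tumors 63 of the 92 rose with the score and 0 fell, and 45 rose without tumors 8 and 9. For these and the lists below, the shares over all genes were 4.68% at least 2-fold higher and 0.775% at least 2-fold lower. In WT-Tag tumors 7.68% of all genes rose and 3.76% fell. Without tumors 8 and 9, 643 and 230 of 15356 did. The summed level of the 8 lists was 911 to 2168 FPKM in the lower group and 2220 to 3726 in the higher group, so the sums did not overlap.

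Genes of the synaptic vesicle and its release gave 11 of 18 at least 2-fold higher and a median difference of 1.24, and 16 rose in WT-Tag tumors, 11 without tumors 8 and 9. Syt2, the calcium sensor of fast synapses of the brainstem, was at 0.273, 3.73 and 24.9 FPKM (lowest, median and highest) in the lower group and 25.7, 32.3 and 50.3 in the higher group. The groups of Syt2 touched but did not overlap, and it differed by 2.85 ± 0.51. Its WT-Tag slope was 1.26 ± 0.09 (adjusted p = 8.557e-06). Cplx1, a complexin that clamps the fusion machinery, was at 4.69, 17.6 and 96.3 against 90.5, 115 and 201 and differed by 2.72 ± 0.47. Syp (synaptophysin, the abundant vesicle protein) differed by 2.15 ± 0.35 and Sv2b, another vesicle protein, by 2.24 ± 0.40.

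Many neuronal genes are held silent outside neurons by the repressor REST, which binds the RE1 element. The left part of that element, TTCAGCACC, and 9 letters of its right part, GGACAGCGC, were searched on both strands of the RefSeq promoter windows of build GRCm38.p6, from 250 bases before to 50 after the start. The left part was found in the windows of 117 of 27025 gene symbols (0.433%), of 3 of the 73 score and neuron-list genes with an entry (4.11%), and of 1 of 205 genes of the other lists (0.488%). The right part was found in 129 symbols (0.477%), in 5 of the 73 (6.85%; Unc13a, Tph2, Gad2, Gria2 and Slc18a2) and in 0 of the 205. Syt1 and Rbfox3 have entries and hold neither part. Snap25 and Stmn2 have no entry. The 3 windows with the left part are shown since they belong to neuronal genes that differed between the groups to different degrees. They are Syn1 at chrX:20920869-20921168, Unc13a at chr8:71671708-71672007 and Tph2 at chr10:115184973-115185272, all on the minus strand and written 5′ to 3′ along the gene, with the matched letters in capitals.
Syn1: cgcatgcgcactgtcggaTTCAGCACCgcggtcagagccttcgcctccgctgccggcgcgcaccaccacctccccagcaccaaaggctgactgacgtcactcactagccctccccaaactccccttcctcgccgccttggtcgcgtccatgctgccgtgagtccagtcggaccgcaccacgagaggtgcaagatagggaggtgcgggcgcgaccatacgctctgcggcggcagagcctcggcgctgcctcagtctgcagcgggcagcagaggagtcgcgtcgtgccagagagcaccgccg
Unc13a: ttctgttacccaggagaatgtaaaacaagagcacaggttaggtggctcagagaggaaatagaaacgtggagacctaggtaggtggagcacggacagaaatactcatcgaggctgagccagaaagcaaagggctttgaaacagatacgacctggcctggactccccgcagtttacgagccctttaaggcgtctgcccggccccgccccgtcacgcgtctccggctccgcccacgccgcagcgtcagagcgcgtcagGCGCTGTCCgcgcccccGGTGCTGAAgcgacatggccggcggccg
Tph2: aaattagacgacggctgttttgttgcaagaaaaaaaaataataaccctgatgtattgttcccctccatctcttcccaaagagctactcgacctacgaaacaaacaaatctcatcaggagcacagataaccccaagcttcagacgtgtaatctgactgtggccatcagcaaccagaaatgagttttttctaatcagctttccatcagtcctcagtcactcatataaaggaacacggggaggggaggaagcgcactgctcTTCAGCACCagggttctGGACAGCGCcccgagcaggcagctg
In Unc13a both parts read in the opposite direction (GCGCTGTCC, then GGTGCTGAA), and Syn1 holds an exact match to the left part alone. Only exact matches were searched, so a part with other letters would be missed in any window. The spacing between the parts was not examined. A match in these letters is a description and shows no binding. Syn1, which tethers vesicles, was at 1.58, 2.97 and 5.71 FPKM in the lower and 5.79, 9.27 and 11.3 in the higher group, wholly apart. Unc13a, the vesicle priming protein, was at 0.522, 1.84 and 2.76 against 2.54, 4.26 and 5.03. Tph2, which makes serotonin in raphe neurons, was at 0.538, 1.24 and 4.23 against 0.473, 4.57 and 10.4, with wide overlap, and its WT-Tag slope did not pass (0.37 ± 0.19, adjusted p = 0.24).

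The neuronal cytoskeleton was split. The neurofilament subunits, which fill large axons, had some of the largest differences of any gene: Nefh 3.20 ± 0.60, Nefl 3.09 ± 0.56 and Nefm 2.23 ± 0.39. Nefh was at 0.431, 7.23 and 55.3 FPKM in the lower group and 41.1, 84.2 and 124 in the higher group. Nefl was at 1.70, 19.9 and 134 against 135, 199 and 275, without overlap. Thy1, a surface protein of projection neurons, differed by 2.71 ± 0.45. By contrast Mapt (tau) differed by 0.25 ± 0.19 and Mtap2 (the dendritic protein MAP2) by 0.63 ± 0.14. Gap43, a protein of growing axons, went the other way, at 94.7, 222 and 336 FPKM in the lower group and 72.6, 121 and 198 in the higher group (-0.77 ± 0.23). In all, 6 of 12 genes were at least 2-fold higher, with a median of 0.99, and 6 rose in WT-Tag tumors, 5 without tumors 8 and 9.

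Voltage-gated channels were at least 2-fold higher in 10 of 15 cases (median 1.14), and 10 rose in WT-Tag tumors. Scn1a, the sodium channel of fast-spiking neurons, was at 0.885, 6.04 and 23.5 FPKM against 20.0, 31.5 and 47.9 (2.11 ± 0.38). The potassium channel gene Kcnc1, which supports fast firing, was at 0.251, 0.934 and 3.78 against 4.31, 6.70 and 8.92, wholly apart. Kcnc2, another potassium channel gene of fast-firing neurons, differed by 1.84 ± 0.29.

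Among transmitter genes, those of inhibition had the highest median. GABA and glycine genes were at least 2-fold higher in 9 of 11 cases, with a median of 2.05, and 10 rose in WT-Tag tumors, 7 without tumors 8 and 9. Glra1, the adult subunit of the glycine receptor, was at 0, 2.50 and 14.1 FPKM in the lower group and 15.7, 22.1 and 29.2 in the higher group, without overlap (2.69 ± 0.47). Slc32a1 (the vesicular transporter of GABA and glycine) differed by 2.45 ± 0.43 and Slc6a5 (the glycine transporter of glycinergic neurons) by 2.31 ± 0.41. Of the glutamate genes 7 of 11 were at least 2-fold higher (median 1.36), and 6 rose in WT-Tag tumors, 4 without tumors 8 and 9. Slc17a6, the vesicular glutamate transporter VGLUT2 of subcortical neurons, was at 0.137, 3.52 and 18.6 against 20.2, 29.8 and 45.0, wholly apart (2.81 ± 0.50). Slc17a7, the transporter VGLUT1 of cortical and cerebellar granule neurons, was at 0.129, 0.348 and 5.21 against 0.438, 7.17 and 15.3 with overlap, and its WT-Tag slope of 0.47 ± 0.16 did not pass (adjusted p = 0.0819). The NMDA receptor genes Grin1 and Grin2a differed by 1.78 ± 0.29 and 1.76 ± 0.23. Gria2, the AMPA receptor subunit that limits calcium entry, did not follow, at 6.99, 40.3 and 85.9 FPKM in the lower and 17.1, 32.0 and 44.4 in the higher group.

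Genes of specialised brainstem neurons were low and uneven. Of 15 monoamine and acetylcholine genes 6 passed the filter of 1 FPKM in at least 9 tumors, and 3 of the 6 were at least 2-fold higher (median 1.05). The 10 tumors of the higher group could meet that filter alone, so genes low elsewhere could enter this count through them. Slc18a2 (the vesicular monoamine transporter) differed by 1.33 ± 0.35, Chat (acetylcholine synthesis) by 1.30 ± 0.29 and Th (catecholamine synthesis) by 1.26 ± 0.24. In WT-Tag tumors 4 rose, but 2 did so without tumor 8, 10 or 11, and 0 without tumor 9 or 26 or without both 8 and 9. The neuropeptide genes gave 6 of 11 at least 2-fold higher (median 1.10) and 8 rising in WT-Tag tumors, 5 without tumor 9 and 6 without tumors 8 and 9. Sst (somatostatin) was at 0.082, 6.04 and 19.8 FPKM against 13.3, 38.8 and 61.3, Cck (cholecystokinin) differed by 1.89 ± 0.32, Trh by 1.74 ± 0.57 and Penk (enkephalin) by 1.47 ± 0.41. Npy was an exception, at 8.65 at the median of the lower group and 8.04 at that of the higher group.

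Of 13 genes of cerebellar neurons 8 passed the filter, 4 were at least 2-fold higher (median 0.87), and 3 rose in WT-Tag tumors, 1 without tumors 8 and 9. Pvalb, a calcium buffer of fast-spiking and Purkinje neurons, had the second largest difference of all genes, 3.23 ± 0.57, at 0.486, 4.66 and 38.5 FPKM against 31.7, 59.5 and 99.4. The granule cell markers Gabra6 and Cbln3 and the Purkinje marker Pcp2 did not pass the filter, with medians in the higher group of 0.196, 0.351 and 0.109 FPKM. Calb1, Zic1 and Cbln1 differed by 1.51 ± 0.24, 1.36 ± 0.28 and 1.32 ± 0.28, and Car8 by -0.29 ± 0.38. Of the 10 largest positive differences the remaining genes were Vsnl1 (a neuronal calcium sensor, 2.98 ± 0.57, groups apart), Ckmt1 (mitochondrial creatine kinase, 2.96 ± 0.54), Scn4b (a sodium channel beta subunit, 2.93 ± 0.49), Ndrg4 (2.78 ± 0.50) and Ttr, which is described below. In WT-Tag tumors the steepest positive slopes past the threshold were those of Vsnl1 (1.53 ± 0.11, adjusted p = 1.129e-05), Cplx1 (1.45 ± 0.08), Nefh (1.44 ± 0.13), Sst (1.44 ± 0.08) and Tmem130 (1.35 ± 0.07).

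Genes of immature neurons were mixed. None of the 6 that passed the filter, of 11, was at least 2-fold higher, the median was -0.22, and none passed in WT-Tag tumors. Sox11, a transcription factor of newborn neurons that gliomas also express, was at 12.7, 31.2 and 67.9 FPKM in the lower and 7.23, 14.1 and 27.5 in the higher group (-1.06 ± 0.27). Sox4 and Dcx differed by -0.75 ± 0.37 and -0.58 ± 0.33, while Cd24a, Igfbpl1 and Eomes differed by 0.41 ± 0.25, 0.35 ± 0.28 and 0.14 ± 0.36. Of the 5 members below the filter, Nhlh2, Neurod2 and Neurod6 had medians of 0.520, 0.929 and 0.769 FPKM in the higher group against 0.054, 0.076 and 0.111 in the lower group. Immediate early genes, which mark recent stimulation and also tissue handling, had a median of -0.49 over 10 genes, and none passed in WT-Tag tumors. Fos, Egr2 and Ier2 differed by -0.77 ± 0.31, -0.69 ± 0.24 and -0.64 ± 0.35. Arc, a gene switched on at active synapses, was the exception, at 0.532, 1.64 and 3.89 FPKM against 2.11, 3.54 and 4.48 (0.80 ± 0.20). Over the 92 genes of the 8 neuronal lists, the difference between the groups was lower for genes with a higher level in the neurospheres (r = -0.332, rho = -0.372, a description across genes).

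**Figure D3:**
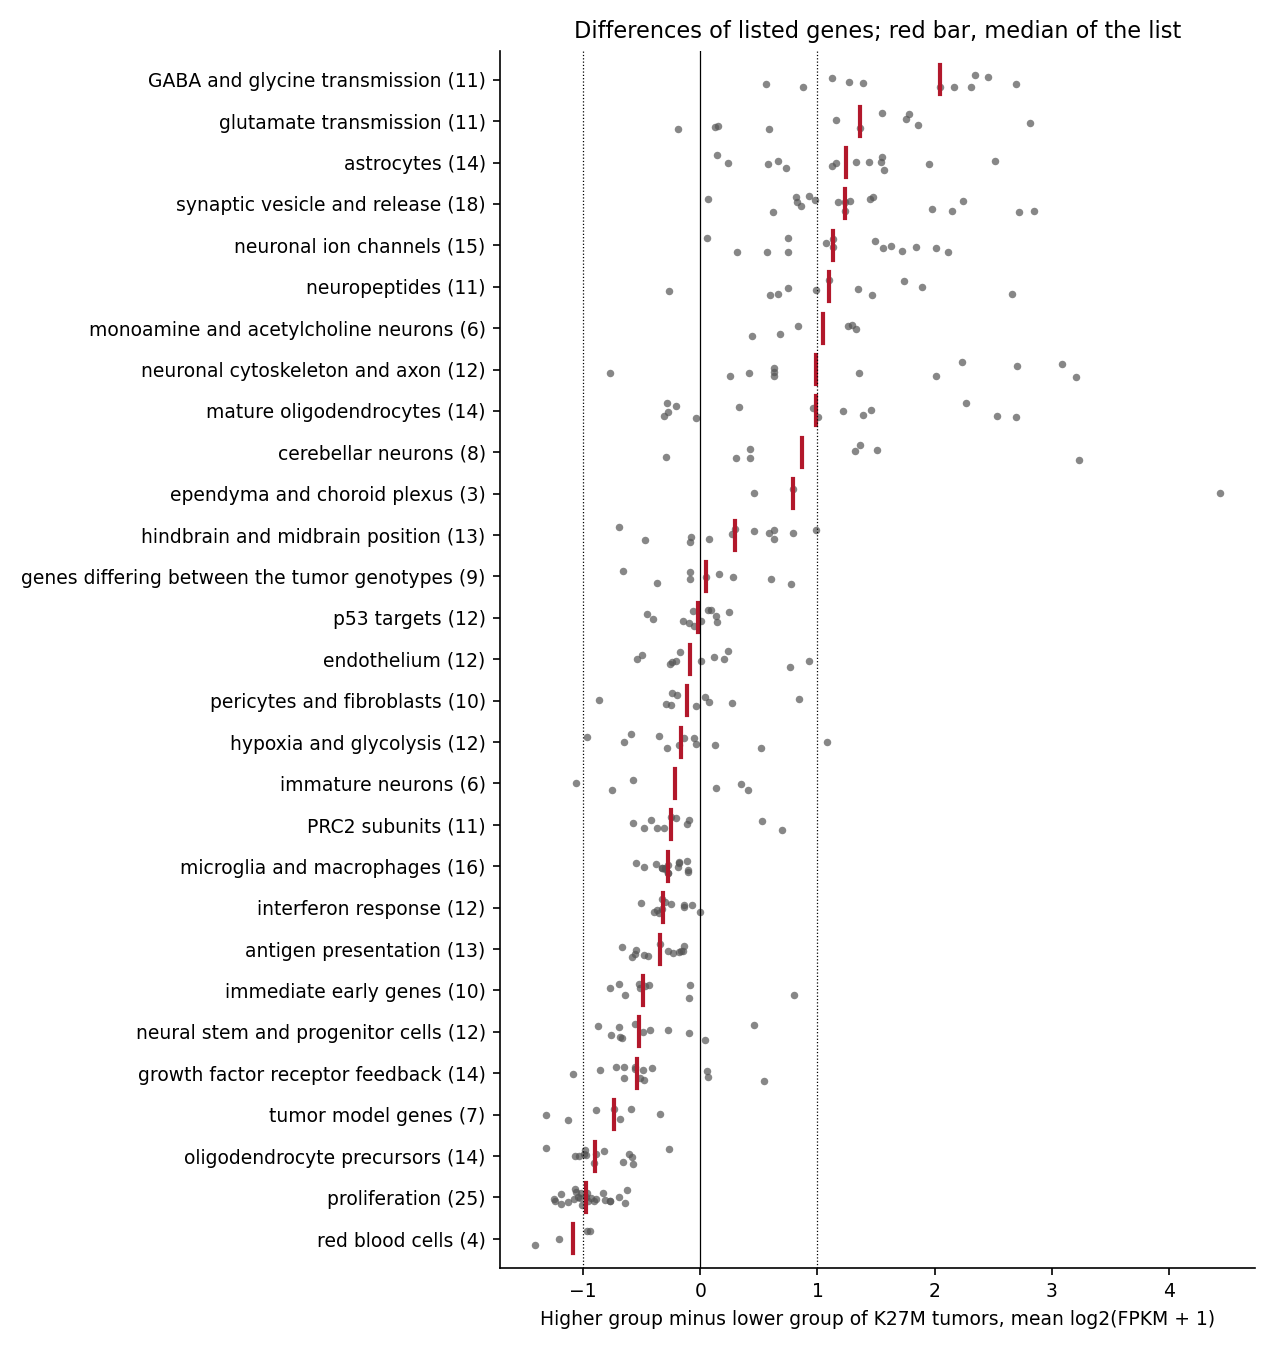
Difference between the groups for each tested member of 29 gene lists (x axis, log2 units, 1 point a gene), with the red bar at the median of the list, the number of tested members after its name, and dotted lines at a 2-fold difference. Neuronal, astrocyte and mature oligodendrocyte lists lie to the right, up to a median of 2.05, and proliferation and precursor lists to the left, at -0.98 and -0.90.

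Genes of mature oligodendrocytes, which wrap axons in myelin, were at least 2-fold higher in 7 of 14 cases (median 0.99), and 6 rose with the score in WT-Tag tumors, 4 without tumors 8 and 9. Mobp, a structural protein of myelin, was at 4.65, 17.4 and 93.4 FPKM in the lower group and 105, 132 and 179 in the higher group, wholly apart (2.69 ± 0.44). Mal, a lipid raft protein of myelin, differed by 2.54 ± 0.42 and Ermn, a cytoskeletal protein of the myelin sheath, by 2.27 ± 0.36. Aspa, an enzyme of N-acetylaspartate breakdown, was at 0.367, 1.24 and 3.04 against 3.26, 4.76 and 7.82 and also lay apart (1.46 ± 0.21). The list divided within itself: Cnp, Cldn11, Ugt8a, Opalin and Gm98 (the myelin regulator Myrf) differed by -0.03 to -0.31, with standard errors of 0.18 to 0.42. The summed level of the list was 682 to 1431 FPKM in the lower and 1052 to 1905 in the higher group.

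Astrocyte genes were at least 2-fold higher in 9 of 14 cases (median 1.24), with all 14 differences positive, and 12 rose in WT-Tag tumors. That count was 5 without tumor 9 and 3 without tumors 8 and 9. Gjb6, a gap junction protein of mature astrocytes, was at 0.399, 3.33 and 15.5 FPKM against 15, 22.4 and 38.3 (2.52 ± 0.42). Gja1, the main gap junction protein of astrocytes, was at 4.62, 8.95 and 24.4 against 24.7, 43.6 and 61.6, and Mlc1, a membrane protein of astrocyte endfeet, at 7.12, 14.4 and 27.9 against 39.7, 45.9 and 67.8. Both lay wholly apart. Agt (angiotensinogen) differed by 1.55 ± 0.40. Gfap, the astrocyte filament that rises in reactive cells, differed by 0.73 ± 0.39 only. The summed level of the astrocyte list was 317 to 1254 FPKM in the lower and 1119 to 1958 in the higher group. The part of mature glia in the neuronal differences, or of neurons in the glial ones, was not tested.

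**Figure D4:**
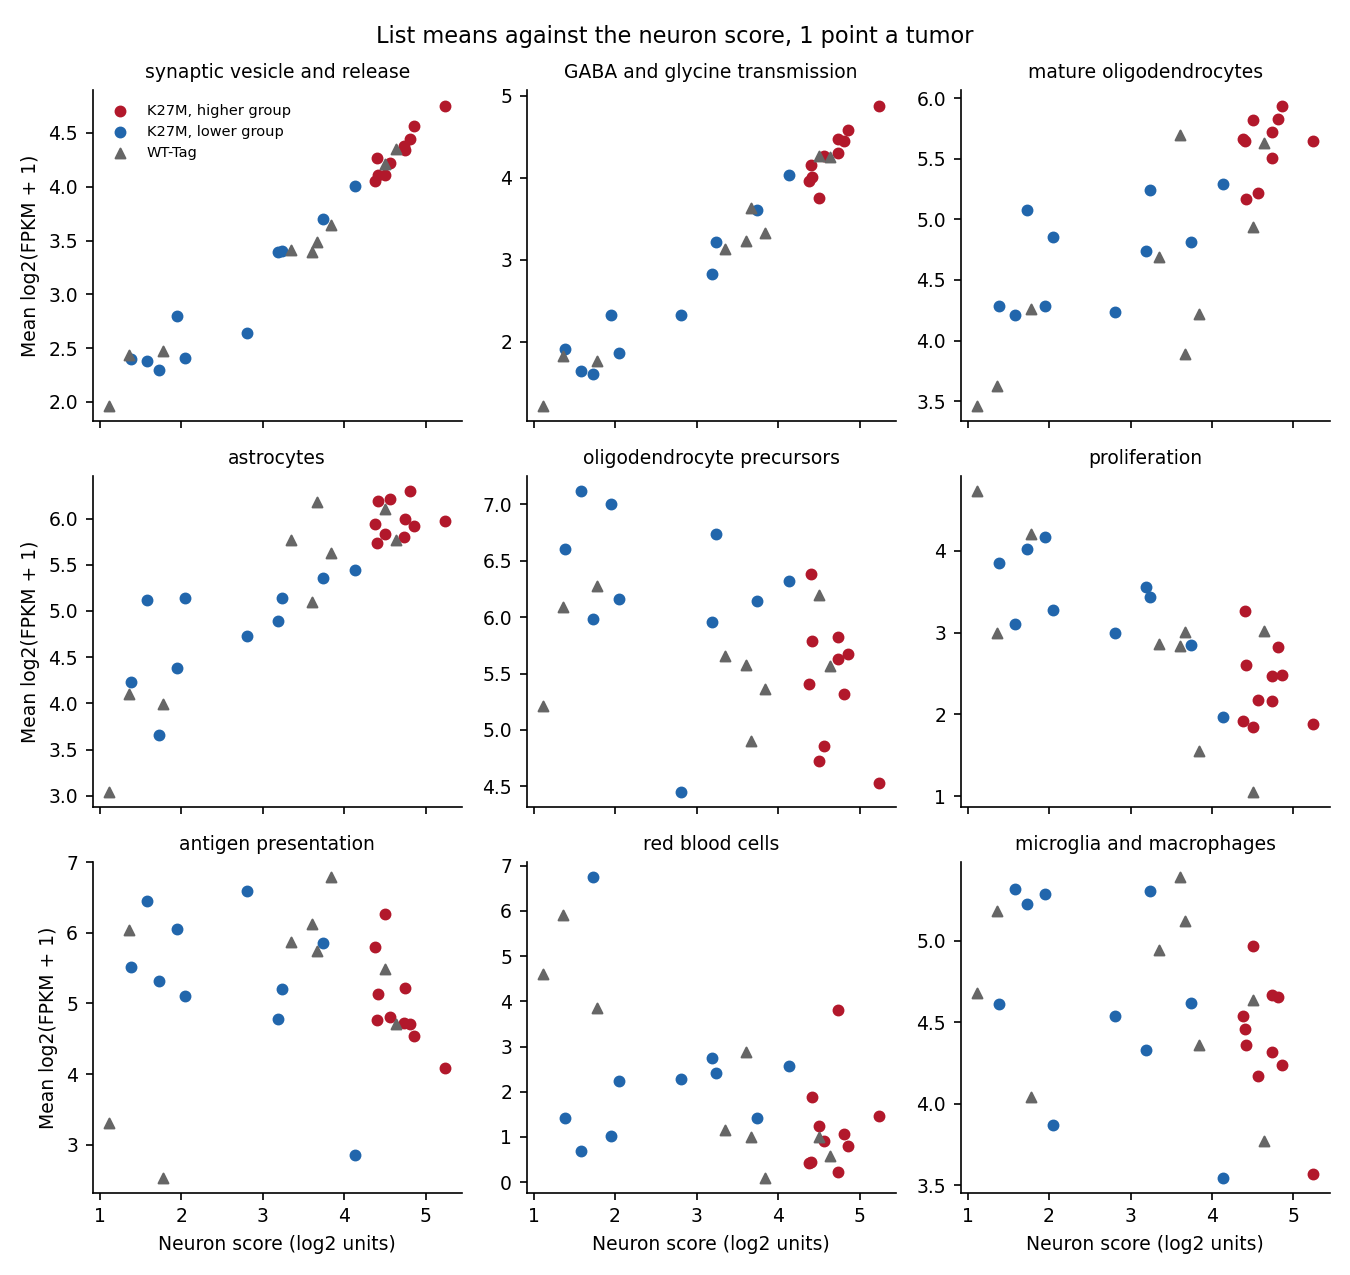
Mean log2(FPKM + 1) of the tested members of 9 lists (y axis) against the neuron score in log2 units (x axis), with 1 point a tumor, blue and red circles for the lower and higher group of K27M tumors and grey triangles for WT-Tag tumors. Synaptic genes follow the score closely in both genotypes, astrocyte genes lie between 5.74 and 6.29 in the higher group against 3.65 to 5.44 in the lower group, and tumor 14 lies lowest of the lower group for precursor genes.

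Genes of the oligodendrocyte precursor, the cell type whose programme these gliomas share, went the other way. All 14 were lower in the higher group, with a median of -0.90, and 3 were at least 2-fold lower. Their number was 5 to 9 without tumor 1, 5, 13, 14, 19, 22 or 25 and 1 without tumor 16, whereas the 14 differences stayed negative whichever tumor was left out. Without the 4 tumors of high Ttr described below it was 11. Pdgfra, the PDGF receptor that the model also activates, was at 36.5, 211 and 337 FPKM in the lower group and 33.5, 76.4 and 189 in the higher group (-1.31 ± 0.37). Its lowest value in the lower group came from tumor 14, and the next lowest there was 121. Cspg4 (the proteoglycan NG2) and Lhfpl3 differed by -1.06 ± 0.38 and -1.03 ± 0.19. Gpr17, a receptor of precursors about to mature, differed by -0.99 ± 0.73, within its spread. In WT-Tag tumors none of the 14 passed, and 4 of 14 slopes were positive. The summed level was 450 to 2251 FPKM in the lower and 426 to 1396 in the higher group.

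Proliferation genes were lower in all 25 cases, with a median of -0.98, and 12 were at least 2-fold lower. The count was 6, 4, 6 and 7 without tumor 1, 3, 4 or 24, and 5 with sex as a covariate; without the 4 tumors of high Ttr described below it was 19. All 25 stayed negative under each of these settings and whichever tumor was left out. Mki67, the cell cycle marker Ki-67, was at 8.68, 23.7 and 47.9 FPKM in the lower and 6.07, 8.68 and 19.7 in the higher group (-1.24 ± 0.30), so the groups overlapped. Top2a (a topoisomerase of dividing cells), Rrm2 (nucleotide synthesis) and Kif20a (a kinesin of cytokinesis) differed by -1.25 ± 0.34, -1.19 ± 0.35 and -1.19 ± 0.50. In WT-Tag tumors all 25 slopes were negative and 10 passed, among them Rrm2 (-0.85 ± 0.23, adjusted p = 0.0393, and 0.145 without tumors 8 and 9). That number rested on single tumors: it was 25 without tumor 11 and 23 without tumor 8, but 5 without tumor 10, 1 without tumor 7, 27 or 29, and 0 without tumor 9, 26 or 28 or without both 8 and 9. It was 5 with median-of-ratios scaling and 1 with a pseudocount of 0.1, no filter or the other score. WT-Tag tumor 26, with a high score of 4.50, had Mki67 at 1.18 FPKM, the lowest of the 29 tumors.

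Neural stem and progenitor genes had a median of -0.52 over 12 genes, with none at least 2-fold different. Nes (nestin, whose promoter drives the Cre) was at 10.4, 16.2 and 55.4 FPKM against 5.84, 6.88 and 19.2 (-0.87 ± 0.31) and fell in WT-Tag tumors (-0.59 ± 0.16, adjusted p = 0.0426). No other of the 12 genes passed, where 3.76% of all genes fell. The call of Nes was lost without tumors 8 and 9 (0.433), without tumor 7, 9, 26, 28 or 29, with no filter and with the other score. Sox2, Hes5 and Vim differed by -0.76 ± 0.25, -0.69 ± 0.38 and -0.68 ± 0.38, and Prom1 by 0.46 ± 0.14. A list of 7 genes set for the tumor model was lower in all cases, with a median of -0.74. It held H3f3a, Trp53 and Pdgfra, and also H3f3b, Cdkn2a, Cdkn2b and Cdkn2c, which are not among the stated alleles. H3f3a, which carries the knock-in, was at 54.3, 73.1 and 101 FPKM in the lower and 34.0, 45.9 and 59.6 in the higher group, where 9 of 10 tumors lay below every tumor of the lower group (-0.69 ± 0.12). It fell in WT-Tag tumors too (-0.30 ± 0.07, adjusted p = 0.0246), but did not pass without tumors 8 and 9 (0.0568), without tumor 9, 26 or 28, or with the other score. Of the 7 genes 2 fell in WT-Tag tumors, beside 3.76% of all genes. Without tumors 8 and 9, 1 of the 7 fell, beside 230 of 15356 genes. The CDK inhibitors Cdkn2b, Cdkn2a and Cdkn2c differed by -1.13 ± 0.36, -0.89 ± 0.43 and -0.74 ± 0.25, and Trp53 by -0.34 ± 0.10.

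**Figure D5:**
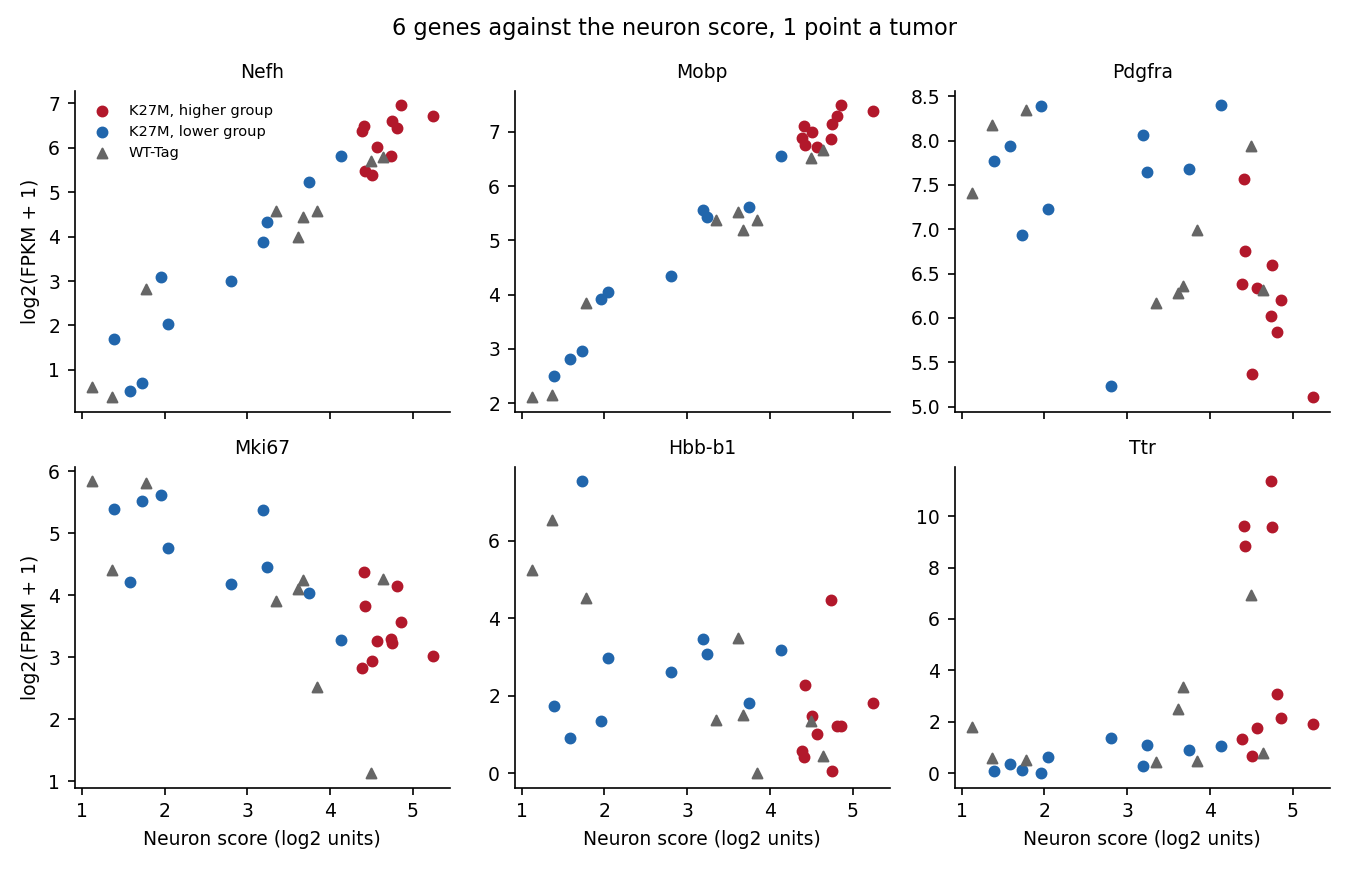
Log2(FPKM + 1) of 6 genes (y axis) against the neuron score in log2 units (x axis) in 29 tumors, 1 point a tumor, with blue and red circles for the lower and higher group of K27M tumors and grey triangles for WT-Tag tumors. Nefh and Mobp follow the score, Pdgfra and Mki67 decline with overlap, Hbb-b1 is high in tumor 1, and Ttr is high in 4 tumors of the higher group.

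Growth factor receptor feedback genes, which report signalling through receptors such as PDGFRα, had a median of -0.54 over 14 genes. Ccnd1 (cyclin D1) was at 134, 184 and 295 FPKM in the lower and 38.9, 96.1 and 135 in the higher group (-1.09 ± 0.19) and fell in WT-Tag tumors (-0.61 ± 0.11, adjusted p = 0.00496), a call lost without tumors 8 and 9 (0.077). Of the 14 genes 2 fell in WT-Tag tumors, beside 3.76% of all genes. Without tumors 8 and 9, 1 of the 14 fell, beside 230 of 15356 genes. Myc, Etv4 and Spry1 differed by -0.85 ± 0.16, -0.72 ± 0.18 and -0.65 ± 0.25, whereas Egfr differed by 0.54 ± 0.20, Ccnd2 by 0.06 ± 0.56 and Met by 0.06 ± 0.17. Among the 10 largest negative differences were Aldh1a3 (retinoic acid synthesis, -1.70 ± 0.48), Epcam (an epithelial adhesion protein, -1.69 ± 0.37), Hmga2 (a chromatin protein of embryonic and tumor cells, -1.54 ± 0.33), Col20a1 (a collagen, -1.48 ± 0.34), Clca1 (-1.43 ± 0.41) and Sdc1 (a surface proteoglycan, -1.44 ± 0.25). Sdc1 was at 6.55, 10.6 and 31.3 FPKM against 1.88, 4.41 and 5.59 and was the only one of the 10 whose groups lay apart. In WT-Tag tumors Aldh1a3 and Sdc1 fell (adjusted p = 0.0264 and 0.046), and neither did so without tumors 8 and 9 (0.525 and 0.276) or with no filter. Leaving out tumor 8, 9 or 26 alone ended both calls, and that of Sdc1 was also lost without tumor 7, 10, 28 or 29, with a pseudocount of 0.1 and with the other score. Mir763 (-1.66 ± 0.41), Snord49b (-1.46 ± 0.64) and Snord118 (-1.42 ± 0.39) are short RNAs whose FPKM rests on few bases, and Mir763 lies inside Hmga2 in the RefSeq annotation.

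The remaining cell types moved less. Of all 15356 genes tested, 9039 were lower in the higher group, with a median over all genes of -0.08. Microglia and macrophage genes were lower in all 16 cases but by a median of only -0.28, with none at least 2-fold different and none passing in WT-Tag tumors. Their summed level was 343 to 1211 FPKM in the lower and 398 to 1057 in the higher group. Itgam, Ptprc, Tyrobp and C1qc differed by -0.54 ± 0.30, -0.48 ± 0.25, -0.38 ± 0.27 and -0.33 ± 0.25. Endothelial genes had a median of -0.09 over 12 genes, yet Slco1a4 and Abcb1a, transporter genes of the blood-brain barrier, differed by 0.92 ± 0.25 and 0.76 ± 0.18. Both rose in WT-Tag tumors (adjusted p = 0.0084 and 0.0183), but neither passed without tumors 8 and 9 (0.06 and 0.251), and Abcb1a did not pass without tumor 9 or 26. They were the only 2 of the 12 genes to pass, where 7.68% of all genes rose. Vwf and Kdr differed by -0.54 ± 0.24 and -0.49 ± 0.26, and the pan-endothelial Pecam1 by 0.00 ± 0.14. Slc2a1 and Cldn5, of the same list, differed by only 0.21 and -0.25. Pericyte and fibroblast genes had a median of -0.11 over 10 genes, with Acta2 at -0.87 ± 0.39 and Dcn at 0.84 ± 0.34. None of 9 lymphocyte genes passed the filter, and their summed level was 0.041 to 1.36 FPKM in the lower group and 0.134 to 0.355 in the higher group.

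Red blood cell genes had a median of -1.08 over 4 globin genes. Hbb-b1 (beta globin) was at 0.884, 5.99 and 185 FPKM in the lower group and 0.040, 1.32 and 21.1 in the higher group (-1.41 ± 0.71, and -0.89 without tumor 1). The globins Hba-a1, Hba-a2 and Hbb-b2 differed by -1.21 ± 0.64, -0.96 ± 0.60 and -0.94 ± 0.59, and copies of one globin may share reads. In WT-Tag tumors all 4 fell, and the steepest negative slopes past the threshold were theirs and that of Hmox1, the heme-degrading enzyme: Hbb-b1 -1.55 ± 0.24 (adjusted p = 0.00207), Hba-a1 -1.47 ± 0.23, Hba-a2 -1.27 ± 0.20, Hbb-b2 -1.26 ± 0.19 and Hmox1 -0.95 ± 0.20. Without tumors 8 and 9 none of these 5 passed, and without tumor 9 Hmox1 did not. Their part in the negative slopes of other genes was not tested.

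Ttr (transthyretin, abundant in choroid plexus epithelium) had the largest difference of all, 4.44 ± 1.35, and it came from 4 tumors. Tumors 25, 5, 13 and 19 had Ttr at 778, 462, 2617 and 769 FPKM, the other 6 tumors of the higher group at 0.604 to 7.43, and the lower group at 0 to 1.60. The choroid plexus genes Folr1 and Kl, which did not pass the filter, were highest in the same 4 tumors, at 2.00 to 12.1 and 3.59 to 21.1 FPKM, against at most 0.162 and 0.779 in the other 16. Without these 4 tumors Ttr differed by 1.22, and 56 of the 92 neuronal genes were at least 2-fold higher, as with them. Foxj1, the regulator of motile cilia of ependyma, lay apart between the groups at lower levels, 0.758, 1.90 and 2.17 FPKM against 2.38, 3.21 and 4.63 (0.80 ± 0.14).

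Antigen presentation and interferon genes had opposite signs in the genotypes. In K27M tumors all 13 antigen presentation genes and all 12 interferon genes were lower in the higher group, by medians of -0.34 and -0.31 (11 of the 12 interferon genes with median-of-ratios scaling). In WT-Tag tumors all 13 and all 12 had positive slopes, with medians of 0.54 and 0.62, and none passed. Tumors 9 and 28, both of low score, stood apart, with mean antigen presentation levels of 3.31 and 2.53 on the log2 scale against 4.71 to 6.79 in the other 7. The medians were 0.23 and 0.34 without tumor 28, 0.32 and 0.46 without tumor 9, 0.91 and 1.01 without tumor 8, and 1.01 and 1.17 without tumors 8 and 9. The difference in slope between the genotypes was tested by limma over the 29 tumors, and no gene of either list passed after adjustment. The lowest adjusted p among antigen presentation genes was 0.493. Tap1, a peptide transporter of antigen presentation, was at 4.58, 47.9 and 160 FPKM in the lower and 17.4, 25.8 and 65.3 in the higher group, so that the lower group enclosed the higher group. Its WT-Tag slope was 0.58 ± 0.36. Without WT-Tag tumor 8, 8 of the 12 interferon genes rose.

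Over all genes the difference in slope passed for 1 gene of 15356 (0.00651%), and 1100 had an unadjusted p under 0.05. Angptl4, a secreted inhibitor of lipoprotein lipase, had a slope of 0.07 in K27M tumors and -0.45 ± 0.09 in the WT-Tag group (adjusted p of the difference 0.0478). It was low everywhere, at 0.716 to 1.97 FPKM across K27M tumors and 0.472 to 4.53 across the WT-Tag group.

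Hypoxia and glycolysis genes had a median of -0.16 over 12 genes, with Ndrg1 (a stress gene that mature oligodendrocytes also express) at 1.08 ± 0.29, Bnip3 at 0.52 ± 0.20 and Ldha (lactate dehydrogenase A) at -0.97 ± 0.21. Ndrg1 rose and Ldha fell in WT-Tag tumors (adjusted p = 0.0299 and 0.00767). No other of the 12 passed, where 7.68% of all genes rose and 3.76% fell. The call of Ldha was lost without tumors 8 and 9 (0.137) or tumor 9, and that of Ndrg1 without tumor 9, 11, 26 or 28, with no filter and with the other score. Targets of p53 had a median of -0.02 over 12 genes (0.02 with median-of-ratios scaling), from Bax at -0.46 ± 0.11 to Phlda3 at 0.25 ± 0.19. Genes of hindbrain and midbrain position had a median of 0.30 over 13 genes. Hoxb5, Hoxc4 and Hoxb3, which pattern the posterior hindbrain and spinal cord, differed by 0.98 ± 0.25, 0.79 ± 0.26 and 0.63 ± 0.20 at levels of at most 3.45 FPKM in K27M tumors. Of the 13 genes 5 rose in WT-Tag tumors, beside 7.68% of all genes. Without tumors 8 and 9, 1 of the 13 rose, beside 643 of 15356 genes. None of 10 forebrain genes passed the filter, and their sum was at most 2.05 FPKM in any K27M tumor. PRC2 subunits, whose enzyme is inhibited by H3 K27M, had a median of -0.25 over 11 genes. Ezh1, the PRC2 enzyme of non-dividing cells, was at 2.84, 3.35 and 6.05 FPKM against 5.58, 6.58 and 7.61 (0.70 ± 0.10), while Ezh2, that of dividing cells, was at 2.04, 5.55 and 10.5 against 1.96, 4.25 and 5.90 (-0.48 ± 0.23). In WT-Tag tumors 7.68% of all genes rose and 3.76% fell. Of the 11 PRC2 subunits, Ezh1 alone rose (0.35 ± 0.07, adjusted p = 0.0126) and the accessory subunit Phf19 alone fell (-0.38 ± 0.10, adjusted p = 0.0325). Neither passed without tumors 8 and 9 (0.0617 and 0.0586) or without tumor 9, and Phf19 did not pass without tumor 7, 11, 26, 28 or 29, with no filter or with the other score.

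Genes known from earlier results of these data to differ between the tumor genotypes had a median of 0.05 over 9 genes, and the list was chosen on these samples. Ndn, an imprinted gene expressed in neurons, was at 44.7, 62.9 and 91.2 FPKM in the lower and 75.0, 101 and 132 in the higher group (0.61 ± 0.12) and rose in WT-Tag tumors (0.62 ± 0.14, adjusted p = 0.0158), though not without tumor 26 (0.0605). No other of the 9 genes passed in WT-Tag tumors, where 7.68% of all genes rose and 3.76% fell. Glycam1 differed by 0.78 ± 0.28 and Asb4 by -0.66 ± 0.38. Asb4 was at 1.71 to 37.1 FPKM in the lower and 2.95 to 11.2 in the higher group, and at 0.145 to 2.62 in WT-Tag tumors.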

How the data were processed

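RNA-seq of 29 brainstem tumors (20 K27M, 9 WT-Tag) and 12 neurosphere cultures was deposited by the authors as 1 table of FPKM values with 34591 entries, of which 974 were at 0 in every library. Per the labels' protocols, Trizol was used for extraction and TruSeq Stranded Total RNA reagents for the libraries. Per the submitters' processing notes, the tools were CASAVA, TopHat2 and STAR and the build mm9, without versions or roles. For the counting tool, its use of strand and the annotation, the sources used here give nothing, so overlapping, antisense and near-identical genes are uncertain. FPKM keeps no read total, so depth is relative: the step between low values gives each library's depth against the others, from 0.395 to 1.66 among K27M tumors.

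From these values log2(FPKM + 1) was computed, which understates changes of low genes, and genes at 1 FPKM or more in at least 9 of 29 tumors were kept (15356 after the 4 score genes were left out). The 10 tumors of either K27M group, or the 9 WT-Tag tumors, could meet this filter alone. With no filter 724 and 119 genes were at least 2-fold higher and lower. Higher minus lower groups were described without a test. Slopes in WT-Tag tumors, and the difference in slope between genotypes, were tested with limma 3.58.1 in R 4.3.3, 2-sided, with Benjamini-Hochberg adjustment and a threshold of 0.05. On simulated data for the WT-Tag slope over 15356 genes, 95% of genes with a slope of 1 and 67% of genes with a slope of 0.5 were recovered (100 each), with 15 false calls. The simulated noise was normal and independent between genes, so these rates need not hold where genes vary together or a single tumor stands apart. Replicates are separately numbered tumors, and nothing in the labels says whether 2 came from 1 animal; p-values measure the spread between these samples.

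The members, the 31 gene lists (392 genes, of which 391 were found in the table, 3 under another symbol, and 332 were tested) and the tests were chosen with earlier results of these data known. Named genes are the score genes, the 10 largest differences in each direction, up to 4 of each list with the largest differences and those against the list's median, the 5 steepest WT-Tag slopes past the threshold in each direction and genes past it for the difference in slope. Other genes in the text were named after their values were seen, among them Mapt, Mtap2, Gfap, H3f3a, Trp53, Syn1, Unc13a, Gabra6, Cbln3, Pcp2, Folr1, Kl and mt-Rnr2. Alternatives were a pseudocount of 0.1, median-of-ratios scaling, no filter, 7 against 7 tumors, a score from Syp, Syn1, Nefl and Gad1, sex as a covariate, and leaving out tumors. Promoter sequences are from RefSeq (GRCm38.p6), and the right motif was shortened by its last letter after the matches of the longer form, which were fewer, had been seen; gene symbols are those of the table, and no coordinates of the files' build were used. Some genes of the lists are not reported here by name.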

Additional observations from a re-analysis of the deposited data

Results flagged for a closer look

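Among 171 sets of values examined (the score, the relative depth and 55 genes in the higher group, the lower group and the WT-Tag tumors), 9 held a tumor that stood far from the others of its group by the ratio of its gap to the range; chance alone gives about 1 in 20 sets. In the higher group, Epcam was highest in tumor 21 (log2(FPKM + 1) of 3.08 against 0.54 to 1.86 in the others, ratio 0.483), and Hbb-b1 in tumor 13 (4.47 against 0.06 to 2.27, ratio 0.498). In the lower group, Hbb-b1 was highest in tumor 1 (7.54 against 0.91 to 3.47, ratio 0.614), Cdkn2b in tumor 17 (5.23 against 2.46 to 3.90, ratio 0.483), and Pdgfra was lowest in tumor 14 (5.23 against 6.93 to 8.40, ratio 0.537).

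Among WT-Tag tumors, tumor 9 held 3 of the 4 outlying values. Met, the receptor of hepatocyte growth factor, was at 1368 FPKM there (10.42 against 0.24 to 1.62 on the log2 scale, ratio 0.865), while its highest level in a K27M tumor was 3.44 FPKM. Mir763 (5.81 against 0.85 to 3.25, ratio 0.516) and Hmga2, in which it lies (4.79 against 0.43 to 2.44, ratio 0.539), were also highest in tumor 9. Ttr was highest in WT-Tag tumor 26 (6.94 against 0.42 to 3.35, ratio 0.551).

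Angptl4 was the only gene whose slope on the score differed between the genotypes past the threshold (K27M minus WT-Tag 0.523, adjusted p = 0.0478 by limma). It did not pass with a pseudocount of 0.1 (0.118), with the other score (0.294), without tumors 8 and 9 (0.13), or without tumor 7, 9, 10, 26, 27, 28 or 29 of the WT-Tag tumors (0.0604 to 0.462).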

How the results depend on the processing

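Counts of genes at least 2-fold higher and lower (719 and 119) were 1199 and 325 with a pseudocount of 0.1 and 1130 and 415 for 7 against 7 tumors, which also gave 1506 and 587 genes with groups apart in place of 386 and 168. The 7 against 7 setting leaves out the tumors nearest the middle. Without tumors 5, 13, 19 and 25, an alternative added after seeing the data, 281 genes were at least 2-fold lower and 582 and 286 had groups apart. Leaving out 1 tumor gave 670 to 856 and 77 to 196 genes at least 2-fold higher and lower, and 386 to 960 and 168 to 249 apart. The other settings kept these counts within 1.5 times, among them the other score, which made the same groups. Leaving tumors out can only raise the number of genes with groups apart or keep it the same. Of the named genes only Ddx3y reversed a difference of at least 2-fold, to 0.22 with sex as a covariate.

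In WT-Tag tumors, 361 genes fell with median-of-ratios scaling, 381 with no filter and 298 with the other score, against 577. Without tumors 8 and 9, 643 rose and 230 fell, and leaving out 1 tumor gave 745 to 1468 and 73 to 1031. The 1 difference in slope became 0 with a pseudocount of 0.1 or the other score, 3 with no filter, 71 without tumors 8 and 9, and 0 to 69 when 1 tumor was left out; the cause was not tested. The other score put all 20 K27M tumors in the same group. Its values for sex labels (Fisher's exact p = 0.37) and depth (difference -0.14) were therefore fixed in advance. No paired analysis was possible because each tumor has a number of its own.

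Depth per library is known only in relation to the others, so genes near 1 FPKM carry unknown counting error.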

Other observations

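The 13 mRNAs of the mitochondrial genome, a list added after the data were seen, were higher in the higher group in 12 of 13 cases, with a median of 0.69 and none at least 2-fold. Their summed level was 8067 to 15530 FPKM in the lower and 13260 to 18980 in the higher group. The complex I genes mt-Nd2, mt-Nd4l, mt-Nd4 and mt-Nd1 differed by 0.94 ± 0.18, 0.79 ± 0.16, 0.77 ± 0.13 and 0.73 ± 0.18, and mt-Nd6, the one mRNA of the light strand, by -0.04 ± 0.14. None of the 13 passed in WT-Tag tumors.

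The 4 Y-linked genes added in the same way (Eif2s3y, Ddx3y, Kdm5d and Uty) had a median difference of -1.20, beside 6 male labels in the lower and 3 in the higher group.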
